A study of Danio rerio with 7 samples.

Results

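The acetylated landscape described here is the full list of H3K27ac domains from bud-stage zebrafish embryos, 4599 of the 38913 intervals in the series. Every interval of the authors' H3K27ac list was taken, and none was left out. The library was made from whole Tu embryos that had reached the bud stage, when gastrulation ends. In the same series Myc-tagged Cdx4, Myc-tagged Sall4 and H3K4me3 were mapped with 1 library each, the tagged factors through an anti-Myc antibody. Cdx4 and Sall4 peaks below are thus those of the tagged proteins, and the untagged proteins of the embryo were not mapped. The 3 input libraries were not analysed here. About 2000 embryos were staged for each experiment, and 500 of them were collected into buffer with 20 mM sodium butyrate, an inhibitor of histone deacetylases. The dissociated material was crosslinked in 1.1% formaldehyde for 15 min. Some embryos of the study received mRNA at the 1-cell stage and others stayed uninjected, and the labels do not say which applied to the H3K27ac library. A whole embryo mixes all germ layers, so a domain marked in a few cells and a weak domain in all cells cannot be told apart.

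H3K27ac is an acetyl group placed on histone H3 mainly by the coactivators p300 and CBP, and it marks active enhancers and promoters. H3K4me3 is a mark of promoters and helps to tell the promoter-proximal part of an acetylated landscape from the distal part. Enhancers often lie in groups around a developmental gene, and joining acetylated elements that lie close together is the first step in the usual search for super-enhancers. Cdx4, a caudal-type homeodomain factor, and Sall4, a spalt-type zinc finger factor, both act in early posterior mesoderm. With 1 library per target there is no spread between replicates and no test. Intervals given below are 95% intervals for counting error within these lists, exact binomial for a share and Newcombe's for a difference of shares. Neighbouring domains are not independent, so these intervals are narrower than the true uncertainty.

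Domains were short, and their widths came in steps. Of the 4599 domains, 4590 started at a multiple of 100 bp. A width of 200 bp was found in 892 domains, and 3620 had a width 1 bp short of a multiple of 100, most often 299 bp (1264 domains) or 399 bp (1004 domains). The median was 399 bp and the range 121 to 6599 bp. A small number of wide domains carried much of the sequence: the 303 domains over 1000 bp wide were 6.59% of the list and held 24.4% of its 2.18 Mb.

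Score, used only to order domains within the list, followed width. The Spearman correlation of width with score was 0.75 across the 4599 domains, which are not replicates, and a score can depend on width by its construction. With the list cut into 10 equal groups by score, the top group had a median width of 999 bp, the next group 499 bp and the bottom group 200 bp. A score of 0 was listed for 158 domains, whose median width was 200 bp. Of these, 41 (25.9%, 19.3 to 33.5%) overlapped a Cdx4 or Sall4 peak. That share was 37.9% over the whole list, but 23.1% (20.4 to 25.9%) among all domains up to 200 bp wide. The top-ranked domain of the list was 5399 bp wide, on chromosome 12 from 27462900 to 27468298, and overlapped no peak of either factor and no H3K4me3 domain.

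**Figure D1:**
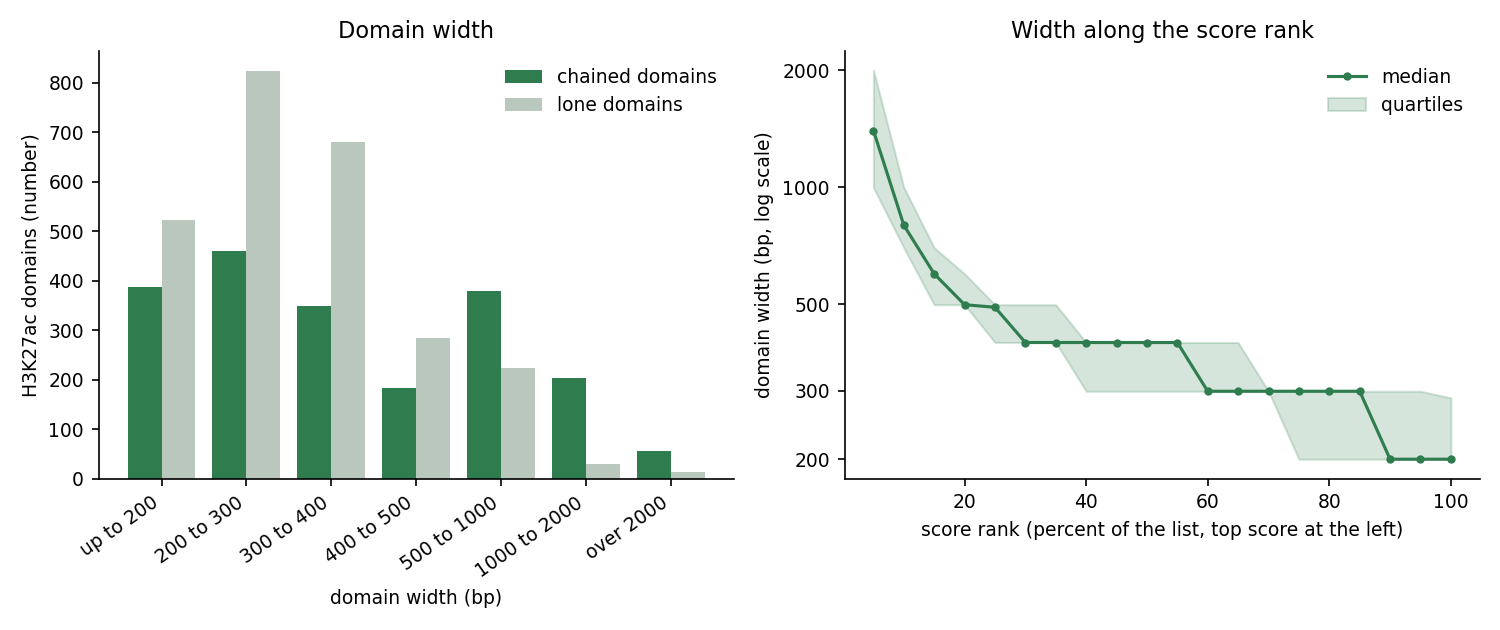
Left, number of H3K27ac domains in each width class (bp), with chained domains in dark and lone domains in light green. Right, median width (line) and quartiles (band) on a log scale in steps along the score rank, top scores at the left; chained domains outnumber lone ones above 500 bp, by 640 to 266.

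Overlap with Cdx4 and Sall4 did not rise steadily with the H3K27ac score. Over the whole list 1414 domains (30.7%) overlapped a Cdx4 peak by at least 1 bp, 1094 (23.8%) a Sall4 peak and 764 (16.6%) both. H3K4me3 overlapped 1126 domains (24.5%). In group 1 of 10, with the top scores, the Cdx4 share was 24.8% (20.9 to 29.1%), and it was highest in group 3, at 43.3% (38.7 to 47.9%). The Sall4 share had the same shape, with 21.6% (17.9 to 25.6%) in group 1 and 37.8% (33.4 to 42.4%) in group 3. Both shares were low in group 10, at 18.9% for Cdx4 and 15.9% for Sall4. H3K4me3 ran differently and was most frequent in group 1, at 39.9% (35.4 to 44.5%). It was 24.1% (20.3 to 28.3%) in group 3.

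**Figure D2:**
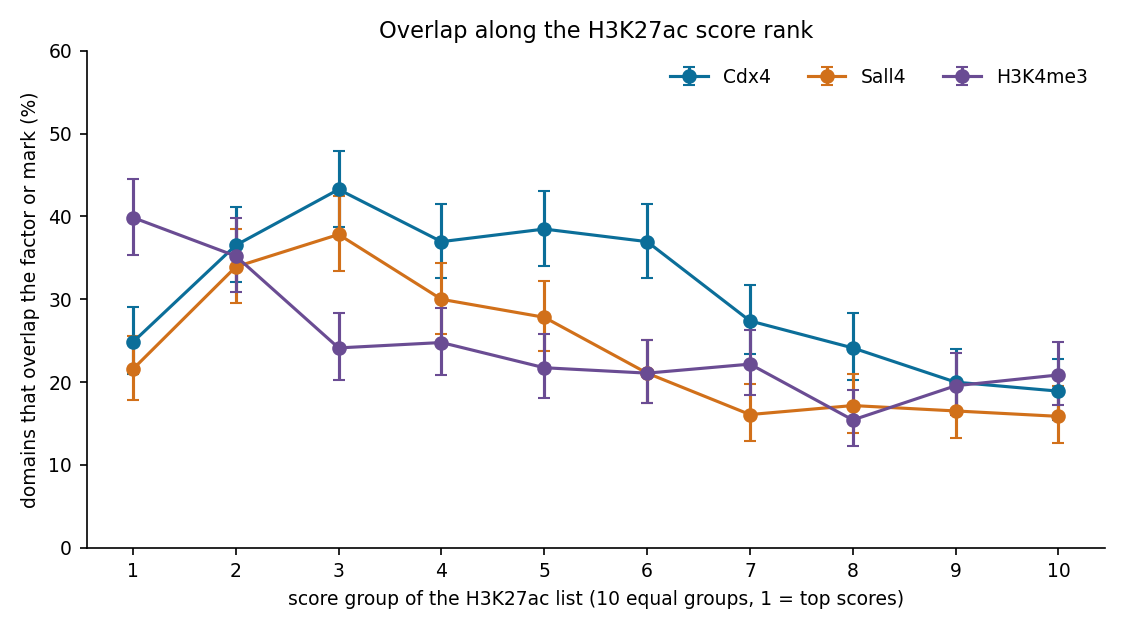
Share of H3K27ac domains (%) that overlap a Cdx4 peak, a Sall4 peak or an H3K4me3 domain in 10 equal groups by H3K27ac score, group 1 holding the top scores. Points are shares and bars exact binomial 95% intervals; the Cdx4 share is 24.8% in group 1 and 43.3% in group 3, while H3K4me3 falls from 39.9% to 24.1%.

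Width gave a similar order, with each class of width or gap taken to include its upper limit. Cdx4 overlapped 17.5% of domains up to 200 bp wide, 40.3% of those from 300 to 400 bp, 30.2% of those from 500 to 1000 bp and 21.9% of those from 1000 to 2000 bp. The share was thus lower at 1000 to 2000 bp, although wider domains offer more sequence to a peak. Among the 70 domains over 2000 bp wide the share was 32.9%, with a wide interval for so few domains. H3K4me3 overlap went up with width, from 15.0% of the narrowest class to 43.3% at 1000 to 2000 bp, and was 38.6% (27.2 to 51.0%) over 2000 bp.

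Where a peak centre lay in a domain up to 1000 bp wide, it was mostly near the middle. Peaks that overlapped a domain only at its edge, with their centre outside, are not counted in these shares. For domains of 300 to 500 bp, 89.0% (86.3 to 91.3%) of Cdx4 peak centres and 84.2% (80.7 to 87.2%) of Sall4 peak centres fell in the central 50% of the domain. The shares were lower in other classes, at 68.2% and 62.6% up to 300 bp and 76.1% and 72.2% at 500 to 1000 bp. In domains over 1000 bp wide the shares were 59.2% (49.1 to 68.8%) and 53.2% (41.6 to 64.5%), where an even spread would give 50%. Most occupied domains held 1 peak of a factor: 1267 held 1 Cdx4 peak, 134 held 2 and 13 held 3 or more.

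Domains were joined into a chain where the gap between neighbours was 12500 bp or less, and a domain with no neighbour that close was called lone. This gave 652 chains with 2020 domains (43.9% of the list, 42.5 to 45.4%) and 2579 lone domains. Chains held 1.18 Mb of acetylated sequence, 54.0% of the total, within a summed span of 4.98 Mb. Most chains were short: 390 had 2 domains, 118 had 3, 87 had 4 to 5, 44 had 6 to 9 and 13 had 10 or more, up to 29. The median span was 5650 bp (quartiles 2699 and 10199 bp) and the median acetylated length 999 bp. Chains of 2 had a median span of 3550 bp and those of 10 or more a median of 32399 bp.

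Many of the gaps that joined domains were very small. Of the 1368 joining gaps, 594 (43.4%) were 1 kb or less, 142 were exactly 201 bp, and the smallest in the list was 200 bp. A run of domains broken by such small gaps may have been 1 stretch of acetylation split by the caller or several elements, and the interval list cannot tell these apart. The comparisons of chained with lone domains, of chain ends with inner domains and of neighbours are therefore also given with domains 1 kb or less apart joined into 1 domain first, a choice made after the gaps were seen. The width of a joined domain includes the gaps it bridges, and its score is the highest among the domains in it. That step left 4005 domains, of which 1263 were in chains.

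Chained domains were on the whole wider and ranked higher than lone ones. As deposited, the chained share was 76.7% in the top of 10 score groups, 34.3% in groups 7 and 8 and 48.3% in the bottom group. It was 43.9% over the whole list. Widths over 500 bp, found in 19.7% of the whole list, occurred in 31.7% of chained and 10.3% of lone domains, a difference of 21.4 percentage points (19.0 to 23.7). The top of 4 equal score groups held 33.0% of chained and 18.7% of lone domains, 14.2 points apart (11.7 to 16.8). The median score rank was 2024 for chained and 2472 for lone domains, where rank 1 is the top score. With neighbours joined first these differences were 21.5 and 13.3 points.

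A chained domain was less often occupied by Cdx4 than a lone one, and the difference depended on how domains very close to each other were counted. Cdx4 overlapped 25.6% of chained and 34.7% of lone domains, a difference of -9.10 points (-11.7 to -6.44). For Sall4 the shares were 21.7% and 25.4%, a difference of -3.75 points (-6.20 to -1.28). Domains with both factors were about as frequent in the 2 classes, at 16.1% and 17.0% (difference -0.93 points, -3.08 to 1.24). Domains with Cdx4 but no Sall4 (14.1% of the list) made up 9.55% of chained and 17.7% of lone domains, -8.17 points (-10.1 to -6.20). Joining neighbours 1 kb or less apart brought the Cdx4 difference to -0.31 points (-3.44 to 2.87) and turned the Sall4 difference to 2.75 points (-0.19 to 5.76). The difference became 4.45 points (1.82 to 7.18) for domains with both factors and -4.77 points (-6.99 to -2.41) for Cdx4 without Sall4. A joined domain counts as having both factors when they lie on different parts of it or in a gap it bridges. Neither of these shares was compared at like widths after joining. With a joining gap of 25 kb the Sall4 difference also changed sign, to 0.64 points (-1.83 to 3.10).

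Occupancy also varied with the distance to the nearest domain. Where the nearest domain was 500 bp or less away, 16.0% (13.3 to 19.0%) of domains overlapped a Cdx4 peak, and at 500 to 1000 bp 15.2% (11.4 to 19.8%). The share was 26.7% at 1000 to 2500 bp, 35.2% at 2500 to 5000 bp and 42.7% (37.7 to 47.7%) at 5000 to 12500 bp. Beyond the chain limit it was 38.3%, 43.7% and 36.9% up to 100 kb, and 31.7% (29.2 to 34.3%) farther away. Domains with their nearest neighbour at 5000 to 12500 bp were thus above the list's 30.7%, and those within 1 kb below it. Sall4 followed with 14.2% at up to 500 bp, 33.6% at 5000 to 12500 bp, 39.6% at 12500 to 25000 bp and 21.2% beyond 100 kb. H3K4me3 was most frequent at both ends, at 28.8% (25.4 to 32.3%) up to 500 bp and 30.0% (27.5 to 32.6%) beyond 100 kb, with 18.2% at 1000 to 2500 bp. The 183 domains that were alone on their sequence have no such distance and were left out here. These shares are of domains as deposited and were not repeated with neighbours 1 kb or less apart joined first. They were also not matched for width: the median width was 499 bp at gaps up to 500 bp and 299 bp beyond 100 kb. A run of close domains that shares 1 peak counts its other domains as unoccupied.

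**Figure D3:**
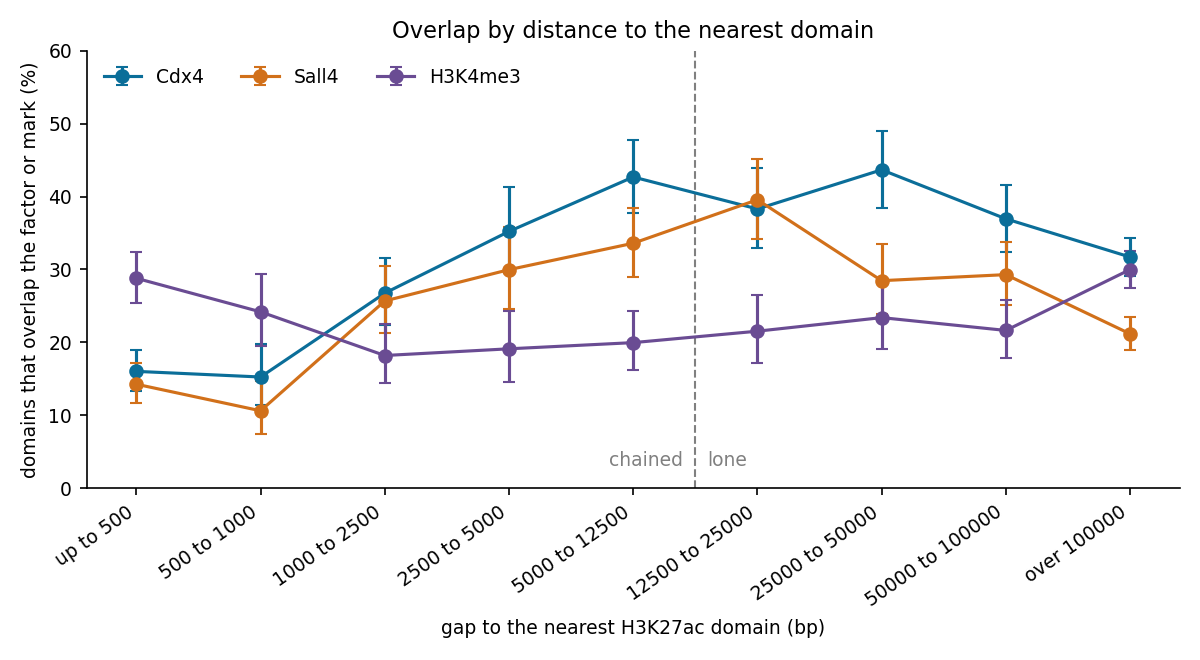
Share of H3K27ac domains (%) that overlap a Cdx4 peak, a Sall4 peak or an H3K4me3 domain, by the gap to the nearest H3K27ac domain (bp). Domains are as deposited, without joining of close neighbours and not matched for width. Points are shares, bars exact binomial 95% intervals, and the dashed line marks the 12500 bp limit of a chain; the Cdx4 share goes from 16.0% at the smallest gaps to 42.7% just inside the limit.

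Among domains as deposited, each factor taken singly also had the lower share in chains within most classes of like width or score. This held in fewer classes once close neighbours were joined. Chained domains had the lower Cdx4 share in 6 of 7 width classes and in 8 of 10 score groups, and the lower Sall4 share in 6 of 7 and 9 of 10. With lone domains reweighted to the widths of chained ones, the differences were -7.51 points for Cdx4 and -3.79 points for Sall4. With neighbours joined first, the chained Cdx4 share was lower in 4 of 7 width classes and 4 of 10 score groups, and the Sall4 share in 3 of 7 and 4 of 10. The reweighted differences were then 0.97 and 1.91 points. H3K4me3 overlapped 23.1% of chained and 25.6% of lone domains, -2.43 points apart with an interval from -4.91 to 0.07. At like widths that difference was -6.27 points, and chained domains had the lower H3K4me3 share in all 7 width classes. With neighbours joined first it was -4.11 points (-6.89 to -1.23), again lower in all 7 width classes. The interval also lay below 0 with a joining gap of 25 kb, without the chains of 10 or more domains and on assembled chromosomes alone. It included 0 with a joining gap of 5 kb (-0.92 points, -3.47 to 1.70) and among the better-scoring domains (-0.26 points, -4.04 to 3.61). The same held for chains of 3 or more domains (-2.17 points, -5.01 to 0.77) and for an overlap of at least 50 bp (-2.43 points). Chains built only from domains over 500 bp gave the opposite sign, 3.15 points (-3.16 to 9.43).

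With gap classes pooled, neighbours in a chain were more often alike in occupancy than neighbours across longer gaps. For Sall4 and H3K4me3 this did not hold in every single gap class. Where neighbours were over 1000 and up to 12500 bp apart, 53.6% (47.0 to 60.2%) of domains after a Cdx4-occupied neighbour were occupied, against 21.4% (18.1 to 25.1%) after an unoccupied one. Across gaps over 12500 bp the shares were 38.0% (35.1 to 41.1%) and 31.9% (29.8 to 34.0%). Sall4 gave 42.2% and 18.8% inside chains, and 30.6% and 24.2% across the longer gaps. With neighbours up to 1 kb apart joined first, the differences inside chains were 32.7 points for Cdx4 and 25.9 points for Sall4, against 32.2 and 23.4 points as deposited. For H3K4me3 the likeness was greatest between the closest domains: at gaps up to 1 kb the shares were 68.1% (60.4 to 75.1%) and 10.0% (7.37 to 13.3%). In 61 of the 113 such pairs with H3K4me3 on both, a single H3K4me3 domain reached over the gap from one to the other. A 100 bp factor peak cannot span a gap of 200 bp. At gaps over 1000 and up to 12500 bp the H3K4me3 shares were 32.0% and 16.0%, but at 2500 to 5000 bp alone they were 18.2% and 17.6%. Across gaps of 12500 to 25000 bp, outside chains, they were 42.5% and 19.2%.

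Counted as units, chains held factor peaks more often than lone domains, and they also held more acetylated sequence. A Cdx4 peak lay in a domain of 300 of 652 chains (46.0%, 42.1 to 49.9%) and in 34.7% of lone domains. For Sall4 the shares were 43.1% (39.3 to 47.0%) and 25.4%, and for both factors 35.7% (32.1 to 39.5%) and 17.0% (15.6 to 18.5%). Per kb of acetylated sequence the order was the opposite, with 0.519 Cdx4 and 0.423 Sall4 peaks in chains and 0.966 and 0.728 in lone domains. The rate went down with chain size, from 0.720 Cdx4 peaks per kb in chains of 2 to 0.339 in chains of 6 to 9, and was 0.443 in those of 10 or more. Chained domains were wider than lone ones, and most occupied domains held 1 peak of a factor. These rates were not matched for width. The mean number of Cdx4 peaks in the span went up from 0.833 per chain of 2 to 6.46 per chain of 10 or more, and that of Sall4 peaks from 0.779 to 4.54. The medians went from 0 to 4 for Cdx4 and from 0 to 5 for Sall4. Single chains of 10 or more held up to 23 Cdx4 and 14 Sall4 peaks. These counts were not divided by span, whose median was 3550 bp in chains of 2 and 32399 bp in those of 10 or more.

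Occupancy was uneven between chains. No Cdx4 peak lay in the span of 334 chains (51.2%), 125 held 1, 92 held 2, 69 held 3 to 4 and 32 held 5 or more, up to 23. For Sall4, 350 chains held 0 and 29 held 5 or more, up to 14. The span of 293 chains (44.9%) had no peak of either factor, and 153 chains (23.5%) had neither factor nor H3K4me3. Lone domains, which cover less sequence, had higher shares, at 56.8% and 37.8%. Chains with and without factor peaks were also found among the largest: 5 of the 13 chains of 10 or more domains had no factor peak, and the other 8 had both factors.

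**Figure D4:**
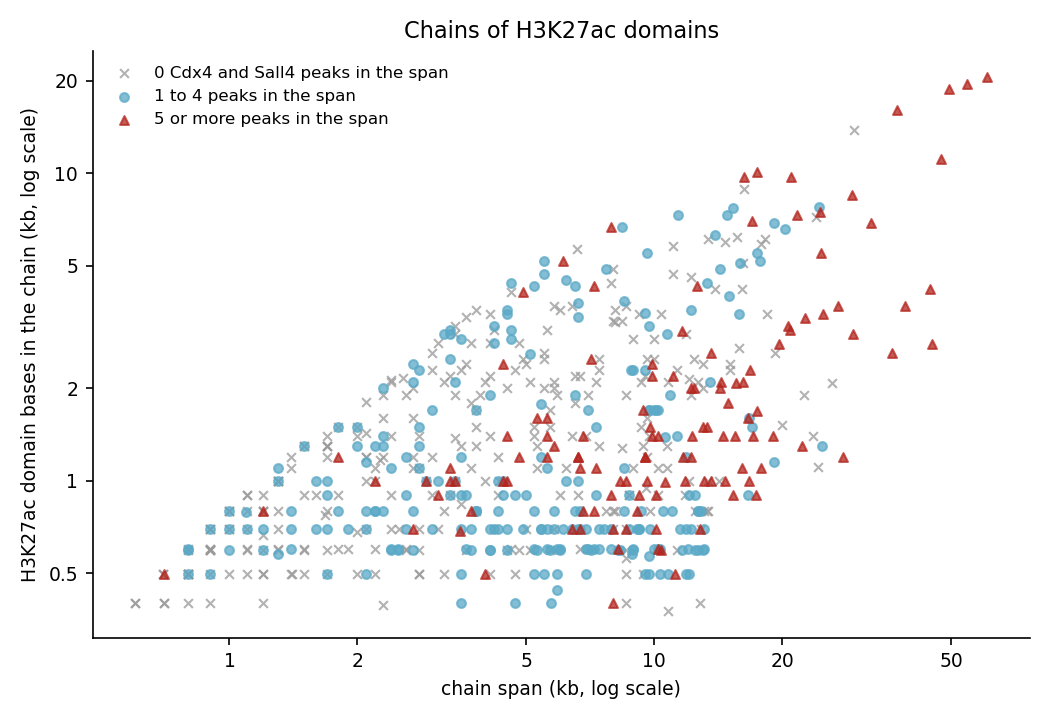
Each point is 1 of 652 chains, placed by its span (kb) and by the H3K27ac domain bases in it (kb), both on log scales; crosses, circles and triangles mark 0, 1 to 4 and 5 or more Cdx4 and Sall4 peaks in the span. Chains without a peak lie across most of the range of acetylated bases, up to 13781 bp.

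Chains of 3 or more domains were divided by the median of their gaps at 1 kb, a limit chosen after the data were seen. The 103 compact chains had a median span of 6099 bp and a median acetylated share of the span of 47.5%. For the 159 loose chains these medians were 12199 bp and 16.6%. Cdx4 lay in the span of 39.8% of compact and 55.3% of loose chains, and Sall4 in 39.8% and 52.8%. Per kb of domain, compact chains held 0.272 and loose chains 0.575 Cdx4 peaks. Per 10 kb of span both held about the same, 1.44 and 1.46 Cdx4 peaks and 1.29 and 1.42 Sall4 peaks. H3K4me3 overlapped a domain of 60.2% of compact and 54.1% of loose chains.

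Factor peaks also lay in the gaps of chains, more densely than beside lone domains at the same distance. Of 778 Cdx4 peaks in chain spans, 611 (78.5%) overlapped a domain and 167 lay in gaps. Of 735 Sall4 peaks, 497 (67.6%) overlapped a domain and 238 lay in gaps. At 1000 to 2500 bp from the nearest domain edge, the density of Cdx4 peak centres was 0.499 per 10 kb in chain gaps and 0.127 beside lone domains. At 2500 to 6250 bp it was 0.480 and 0.102. Sall4 densities at these distances were 0.641 and 0.217, then 0.742 and 0.238. A base in a gap has a domain on both sides and a base beside a lone domain on 1 side. The Cdx4 gap peaks were spread over 101 chains, 83 of which also had Cdx4 in a domain, and the 10 chains richest in them held 44. Leaving out the chains of 10 or more domains moved the density over 1 kb from every domain from 0.491 to 0.451 per 10 kb for Cdx4 and from 0.685 to 0.677 for Sall4.

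The first and last domains of a chain, as deposited, overlapped the factors more often than inner domains did. In chains of 3 or more, the first and last domains overlapped Cdx4 in 25.2% of cases (21.5 to 29.1%) and Sall4 in 23.3% (19.7 to 27.1%), against 19.8% (17.0 to 22.9%) and 15.4% (12.8 to 18.2%) of inner domains. These differences were 5.36 points (0.68 to 10.1) for Cdx4 and 7.92 points (3.49 to 12.4) for Sall4, and 3.4 (-4.14 to 10.9) and 0.88 points (-6.28 to 8.0) with neighbours joined first. Both places had a median width of 399 bp, but ends ranked higher by score, at a median of 1597 against 2041, and overlapped H3K4me3 in 26.1% against 21.4% of cases. The top-ranked domain of a chain carried Cdx4 in 27.5% of cases (22.2 to 33.3%) and the others in 20.7% (18.2 to 23.3%). Its median width was 749 bp, against 399 bp for the others. It stood at an end in 150 of 262 chains (57.3%), where ends made up a mean of 51.1% of the domains of a chain.

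The chains with the most domains showed both extremes. The first, on chromosome 15 from 19826900 to 19881298, joined 29 domains over 54399 bp, with 19480 bp acetylated, and its span held 5 Cdx4 and 5 Sall4 peaks and 3 H3K4me3 domains. All 5 Cdx4 peaks and all 3 H3K4me3 domains ended within 14.7 kb of the start of the chain, and 4 of the 5 Sall4 peaks lay there too. A chain on chromosome 23 from 35087100 to 35136498 joined 22 domains and held 23 Cdx4 and 9 Sall4 peaks, with Cdx4 on 14 domains and H3K4me3 on 12. On chromosome 25, 22 domains from 37498100 to 37558898 formed the longest chain (60799 bp) and the one with the most acetylated sequence (20480 bp), with 10 Cdx4 and 4 Sall4 peaks and H3K4me3 on 13 domains. A chain of 16 domains on chromosome 3 from 20672100 to 20719398 held 20 Cdx4 and 14 Sall4 peaks, and 12 of its Cdx4 peaks overlapped a Sall4 peak.

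Against these stood large chains with no peak at all. On chromosome 19 from 38899200 to 38928698, 22 domains with 13781 bp acetylated (46.7% of the span) had 0 Cdx4 peaks, 0 Sall4 peaks and 0 H3K4me3 domains in the span. The same held for 12 domains on chromosome 20 from 30984000 to 31000198 and 11 domains on chromosome 2 from 53569200 to 53593198. The best domains of these 3 chains had score ranks of 79, 150 and 188 among 4599. Depth and thresholds behind the factor lists were not given in the sources used here, so the absence of a listed peak is not the absence of binding.

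The other chains among the 10 lay between these. On chromosome 16 from 14740500 to 14772898, 13 domains held 3 Cdx4 and 5 Sall4 peaks in the span. On chromosome 20 from 26053200 to 26082398, 12 domains held 4 and 8. On chromosome 25 from 33932000 to 33969298, 11 domains with 16089 bp acetylated held 8 and 5, and H3K4me3 lay on 7 of them. Of the 5 longest spans, the one with the fewest domains was on chromosome 6 from 49401300 to 49446398, where 8 domains covered 6.20% of 45099 bp, with 5 Cdx4 and 13 Sall4 peaks, 3 of the latter in domains.

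**Figure D5:**
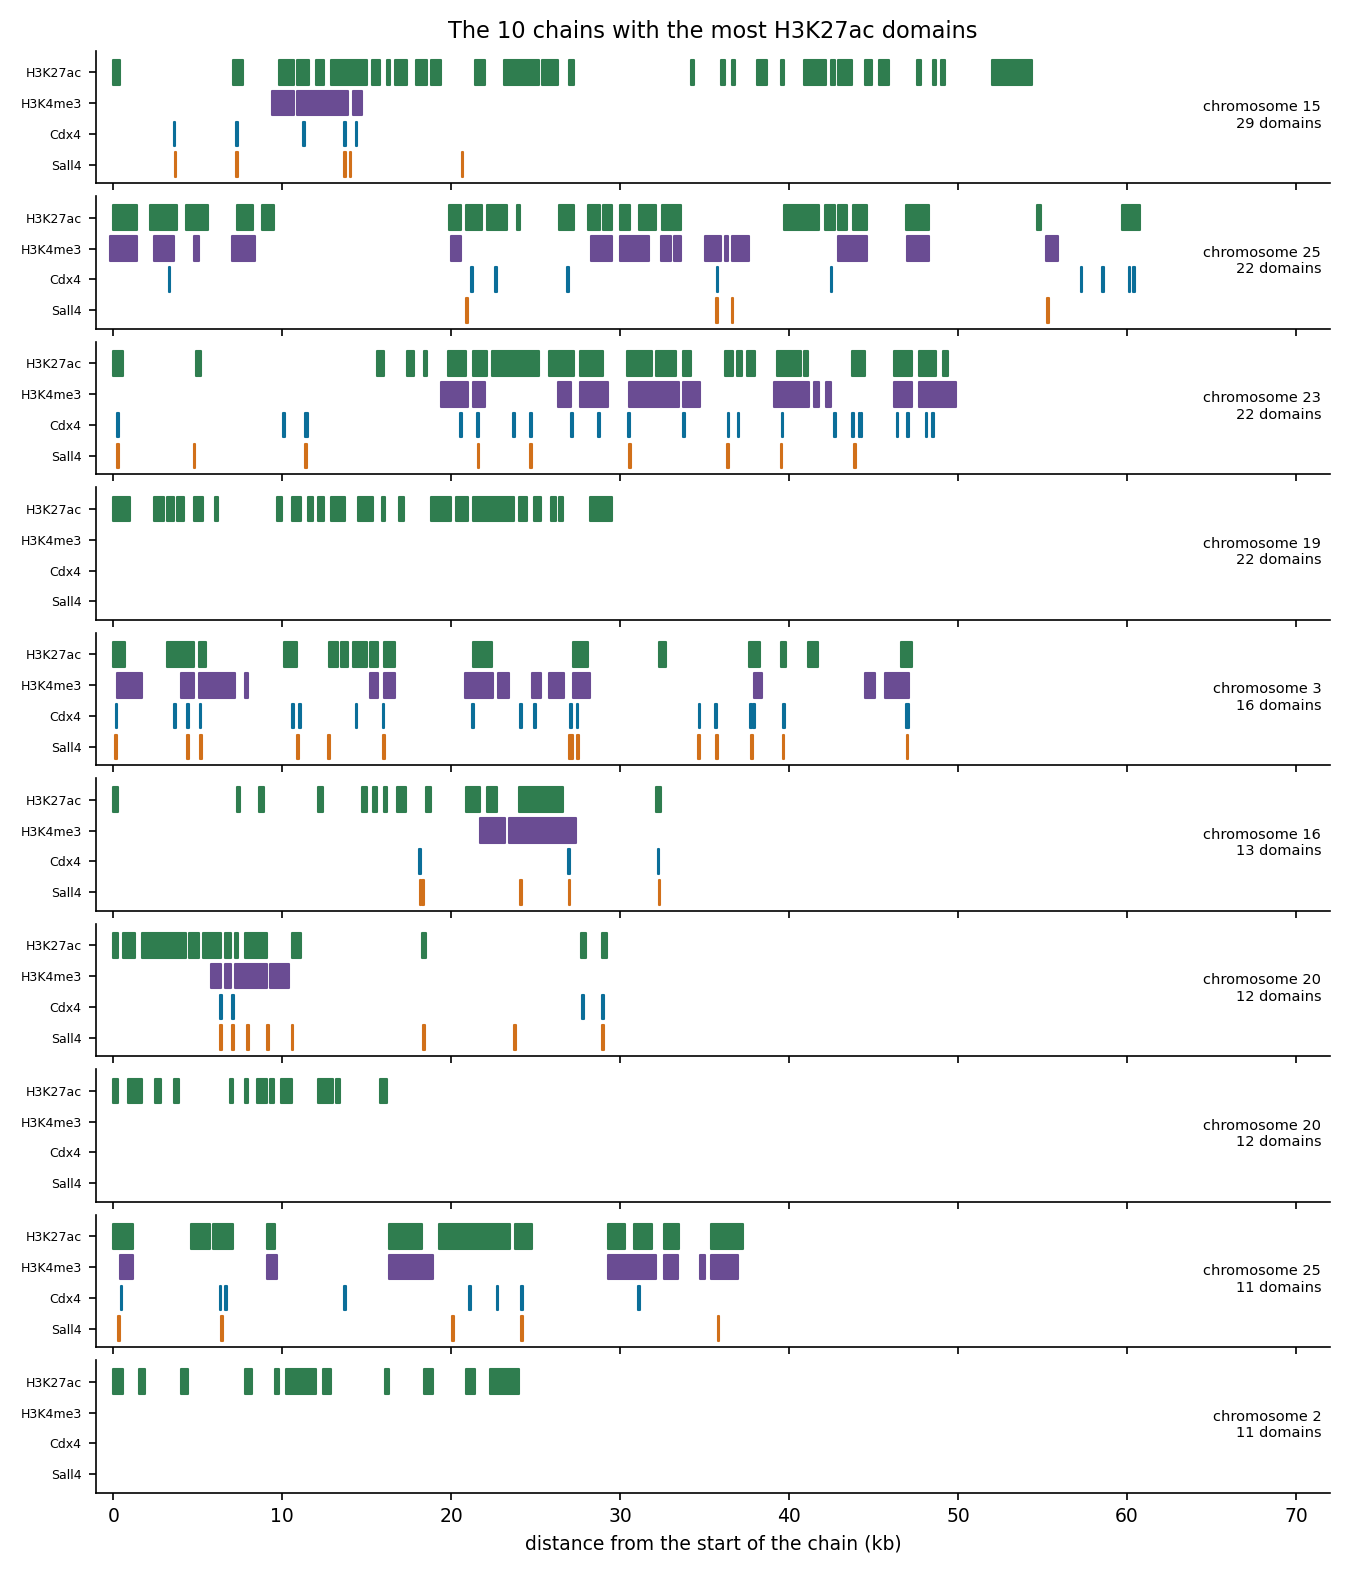
The 10 chains with the most H3K27ac domains, drawn to scale by distance from the start of each chain (kb), with bars for H3K27ac domains, H3K4me3 domains, Cdx4 peaks and Sall4 peaks. The chain on chromosome 23 holds 23 Cdx4 peaks, while the chains of 22 domains on chromosome 19, 12 on chromosome 20 and 11 on chromosome 2 show H3K27ac alone.

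Lone domains took ranks 2 and 3 of the list by score. The widest lone domain, 5599 bp on chromosome 6 from 42855800 to 42861398, had score rank 3 and its nearest neighbour 57201 bp away. Next came 5299 bp on chromosome 23 from 8816200 to 8821498, with score rank 2, then 3799 bp on chromosome 10 from 27945500 to 27949298, with rank 6. The first 2 overlapped no peak of either factor and no H3K4me3 domain, and the one on chromosome 10 overlapped 1 Cdx4 and 2 Sall4 peaks. The remaining wide ones, both on chromosome 11, were 3699 bp from 40853100 to 40856798 with 2 Cdx4 peaks, and 3499 bp from 7742000 to 7745498 with 1 Cdx4 peak and H3K4me3. Lone domains with ranks 14, on chromosome 20 from 2817900 to 2820198, and 24, on chromosome 1 from 38196300 to 38199398, overlapped no factor peak.

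Among the 5 top-scoring chained domains, 2 belonged to the same chain of 5 domains on chromosome 21. One of them, from 39189300 to 39193398, held 1 Cdx4 and 2 Sall4 peaks and no H3K4me3. The other, from 39194300 to 39199098, held no factor peak and overlapped H3K4me3. The domain on chromosome 22 from 18696900 to 18700198 held 3 peaks of each factor, and that on chromosome 18 from 16225100 to 16228798 held 1 Sall4 peak. No gene was assigned to any domain, because an annotation of assembly Zv8 was not at hand.

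Among domains as deposited, how often a domain was chained differed with its width and with the factors. Of the 906 domains over 500 bp wide, 70.6% were in chains, with 407 of 562 (72.4%) among those without H3K4me3 and 233 of 344 (67.7%) among those with it. Of the 3693 domains up to 500 bp wide, 37.4% were in chains. Among these narrow domains the chained share was 42.2% of the 2257 without either factor and 29.7% of the 1436 with a factor. This split was not repeated with neighbours 1 kb or less apart joined first. Over all domains, that joining brought the chained minus lone difference to -0.31 points for Cdx4 and 2.75 points for Sall4. Domains with H3K4me3 were chained in 41.5% of 1126 cases, beside 43.9% of the whole list.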

How the data were processed

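ChIP-seq lists of 1 library per target were used. The authors deposited intervals with a score of unstated meaning, which only ranked H3K27ac domains, ties being broken by position. Bowtie 0.12.7 and CASAVA 1.4 appear in the submitters' processing notes without their roles. The domain caller, thresholds, any input control and sequencing depth were not given in the sources used here. How finely the caller splits a marked stretch sets the number of domains and the small gaps, and a peak list's length depends on depth. Scaffold names are those of assembly Zv8, and coordinates count from 1 with both ends included.

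Gaps, chains, overlaps (at least 1 bp) and densities were computed with Python 3.11.15, numpy 2.4.6, pandas 2.3.3 and scipy 1.17.1, and plotted with matplotlib 3.10.9. Chaining and overlap were tested on simulated data. Densities in chain gaps and beside lone domains used peak centres. Rates per kb of domain and per 10 kb of span counted peaks that overlapped by at least 1 bp. No test between conditions was possible. The named positions are the 10 chains with the most domains, the 5 longest, the 5 with the most base pairs, the 3 largest without peaks, the 5 widest lone domains, and the 5 top-scoring domains in and outside chains. The members and comparisons were chosen with earlier results of these data known. No sequences were read, since no genome of this build was used.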

Additional observations from a re-analysis of the deposited data

How the results depend on the processing

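No paired analysis was possible because each ChIP target had 1 library. Values are in the order share in chains (%), then chained minus lone in points for Cdx4, Sall4, H3K4me3, widths over 500 bp and the top of 4 score groups, then chains with both factors (%), and only those outside the reported value's interval are given. A joining gap of 5 kb gave 35.3%, -14.3, -7.74, 24.4 for width and 29.7% for both factors. A gap of 25 kb gave 50.8%, a Sall4 difference of 0.64, which reversed the sign, and 18.4 for width. Only domains over 500 bp gave 49.7%, -8.73 for Sall4, 3.15 for H3K4me3, whose sign turned, and 27.9% for both factors. Only the better-scoring part gave 37.7%, -11.8, -7.93, 30.8 for width and 24.4 for score. Leaving out domains with H3K4me3 gave 41.4%, -12.3, -6.53, 16.9 and 10.8. Chains of 3 or more domains gave -12.6, -6.73, 27.4 and 19.3. Added after the data were seen, joining neighbours 1 kb or less apart gave 31.5%, -0.31 for Cdx4, 2.75 for Sall4, again reversed, 4.45 for both factors on a domain, -4.77 for Cdx4 alone, 0.88 for Sall4 at chain ends minus inner domains, and 40.9% of chains with both factors, and reweighting by width gave -6.27 for H3K4me3. The joining construction counts a run of close domains once, and as having both factors where these lie on different parts of the run. Assembled chromosomes alone moved none of the 7 results outside its interval. Neither did an overlap of at least 50 bp, run for the 3 overlap differences and the chains with both factors, nor leaving out the chains of 10 or more domains, run for the 5 differences. Sequencing depth is unknown, so an unlisted domain or peak may have been missed.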

Other observations

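The 25 assembled chromosomes differed in how densely they were acetylated and how often domains were chained. Taking the last listed position as the length, the density had a median of 3.20 domains per Mb. It was lowest on chromosome 4 (1.98) and highest on chromosomes 23 (4.68) and 25 (4.28). The chained share had a median of 44.4%, with 29.7% on chromosome 12 and 52.8% on chromosome 2. Chromosome 25 had the highest share of domains with H3K4me3, 41.6% against a median of 25.2%. The Cdx4 share ran from 20.6% on chromosome 22 to 41.5% on chromosome 11.

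Chromosome 4 held 128 domains in its first and 14 in its second part when split at the middle of the listed length. None of those 14 domains was chained or overlapped Sall4 or H3K4me3, and 1 overlapped Cdx4. Over the whole list 43.9% of domains were chained, and 23.8% overlapped Sall4, 24.5% H3K4me3 and 30.7% Cdx4. With 14 domains, few overlaps would be counted even at these shares. Unplaced scaffolds held 339 domains on 232 sequences, of which 37.8% were chained, and a domain near a scaffold's end cannot be joined to a neighbour on another sequence. Their Cdx4 share was 25.4%, against 31.2% on chromosomes.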
